A study of Mus musculus with 4 samples.

Results

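The genes described are 8 that encode parts of the dystrophin-glycoprotein complex and of the costamere, the structure that fastens the outermost sarcomeres of a muscle cell to its membrane. They were taken by name, Dmd, Utrn, Dtna, Sgcd, Sgca, Dag1, Lama2 and Itga7, and all 8 were among the 22574 genes of a single-nucleus RNA sequencing matrix from neonatal mouse hearts. The matrix came from 4 libraries, 1 for each combination of genotype and surgery, and no group was replicated. Per the labels, the WT-Sham and WT-MI libraries came from Nrf1fl/fl mice, which carry a loxP-flanked Nrf1 gene and no Cre. The KO-Sham and KO-MI libraries came from Nrf1fl/fl mice with aMHC-Cre. That is a recombinase under the promoter of alpha myosin heavy chain, a gene of cardiomyocytes. The methods give a C57BL/6 background for all, while the strain labels of the 4 samples differ from each other. Nrf1, encoded by Nfe2l1, is a transcription factor that turns on proteasome and antioxidant genes. At postnatal day 3 the hearts had myocardial infarction (MI) by tying the left anterior descending artery, or a Sham operation without the tie, and tissue was collected 1 day later, at postnatal day 4, per the methods. Each library is a pool of tissue below the ligation plane from 4 to 6 hearts, whose sexes are not given, and only nuclei the study assigned to cardiomyocytes were kept. Nuclei and not whole cells were sequenced. The nuclei carry 1 of 4 deposited population labels: CM1, which holds most nuclei, CM2, CM4, which the study describes as cardiomyocytes that enter the cell cycle after injury, and CM5, which it describes as induced by injury.

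Dystrophin is a long cytoplasmic protein that binds actin at one end and the transmembrane protein dystroglycan at the other. Dystroglycan binds laminin in the basement membrane outside the cell, sarcoglycans stabilise the complex in the membrane, and dystrobrevin and syntrophins dock signalling proteins to it. In heart muscle this chain, together with integrins that bind the same laminins, carries force sideways from the sarcomere to the matrix, and its loss causes muscular dystrophies with cardiomyopathy.

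Promoter sequences at RefSeq starts are shown for 5 members that differed in how they stood with surgery and population. Each run holds 250 bases before and 50 bases after a RefSeq start of the gene on GRCm38.p6, written 5′ to 3′ along the strand of the gene. Capitals mark matches to a CArG box or a MEF2 site, short elements bound by serum response factor and by MEF2 factors in muscle.
Dmd (chrX:82948620-82948919, plus strand): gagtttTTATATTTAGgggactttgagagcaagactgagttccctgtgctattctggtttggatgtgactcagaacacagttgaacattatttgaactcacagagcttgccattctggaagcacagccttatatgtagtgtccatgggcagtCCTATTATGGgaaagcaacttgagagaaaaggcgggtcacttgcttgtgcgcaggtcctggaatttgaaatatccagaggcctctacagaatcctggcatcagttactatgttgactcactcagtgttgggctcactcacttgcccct
Utrn (chr10:12861686-12861985, minus strand): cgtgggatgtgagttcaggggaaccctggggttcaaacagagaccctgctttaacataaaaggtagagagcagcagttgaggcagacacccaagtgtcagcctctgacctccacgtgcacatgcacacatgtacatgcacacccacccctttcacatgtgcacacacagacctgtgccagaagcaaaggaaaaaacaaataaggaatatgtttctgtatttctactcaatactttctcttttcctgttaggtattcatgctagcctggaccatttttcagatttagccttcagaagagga
Sgcd (chr11:47379276-47379575, minus strand): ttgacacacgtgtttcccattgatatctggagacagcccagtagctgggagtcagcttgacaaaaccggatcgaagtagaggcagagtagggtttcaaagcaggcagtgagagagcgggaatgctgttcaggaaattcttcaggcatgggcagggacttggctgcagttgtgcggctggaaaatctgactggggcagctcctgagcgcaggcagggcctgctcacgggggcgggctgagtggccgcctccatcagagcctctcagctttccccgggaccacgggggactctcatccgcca
Sgca (chr11:94976278-94976577, minus strand): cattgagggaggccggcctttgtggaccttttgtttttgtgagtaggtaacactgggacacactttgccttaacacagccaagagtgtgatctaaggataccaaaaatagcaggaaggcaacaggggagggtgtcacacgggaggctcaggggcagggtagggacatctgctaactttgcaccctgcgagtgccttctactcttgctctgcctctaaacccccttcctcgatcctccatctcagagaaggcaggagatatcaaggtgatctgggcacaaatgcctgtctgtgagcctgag
Lama2 (chr10:27616893-27617192, minus strand): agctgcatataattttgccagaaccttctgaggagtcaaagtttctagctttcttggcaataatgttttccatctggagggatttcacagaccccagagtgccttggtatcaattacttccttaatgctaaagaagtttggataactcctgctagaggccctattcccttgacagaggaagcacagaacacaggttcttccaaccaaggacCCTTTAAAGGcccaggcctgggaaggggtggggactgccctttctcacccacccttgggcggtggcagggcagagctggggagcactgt

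The Dmd window shown is set on the annotated start of the gene. A further Dmd window, not shown, lies 2099 kb inside the gene body and held no CArG box, MEF2 site or E-box. The Lama2 window lies 2.82 kb, the Utrn window 7.63 kb and the Sgcd window 610 kb inside the annotated gene body. These windows are thus not at the annotated start of their gene. The Dmd window shown held 1 CArG box, at positions -98 to -89 from the start, and 1 MEF2 site, at positions -244 to -235. The Lama2 window held 1 CArG box at positions -39 to -30. Over all 32851 RefSeq windows of that length, searched on both strands, 1.63% held a CArG box and 3.19% a MEF2 site. The E-box (CANNTG) is the element of basic helix-loop-helix factors. In the windows shown it was found at 7 positions for Utrn, 3 for Dmd, 2 each for Sgcd and Sgca and 1 for Lama2. Some overlapped another E-box, and 72.3% of all windows held at least 1. The antioxidant response element (TGACNNNGC), to which Nrf1 can bind, was found in none of the 8 windows of the 6 members that were searched, against 12.4% of all windows. A match is a run of letters and not a measured site, and 3′ counts of nuclear RNA do not say which start was used. Dtna and Itga7 were not searched.

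The libraries held 8585 nuclei, from 1406 to 3328 each, and from 4984625 to 9106522 unique molecular identifiers (UMIs, counts of captured RNA molecules). Levels are counts per 1000000 UMIs (CPM) of all nuclei of a population in a library added together, called a sum, with exact 95% Poisson intervals that cover counting error only. KO-Sham was the shallowest library per nucleus, with a median of 2572 UMIs against 3553.5 to 3959 in the others, and had the highest median percent of mitochondrial UMIs, 8.98 against 5.29 to 6.58. All 8 cardiomyocyte markers checked were detected in each of the 16 sums. Nfe2l1, which encodes Nrf1, stood in CM1 at 61.4 CPM in WT-Sham, 53.3 in KO-Sham, 44.1 in WT-MI (38.9 to 49.9) and 57.7 in KO-MI (51.4 to 64.5). After MI, Nfe2l1 thus stood higher under the KO label than under the WT label. Per the methods, tails were genotyped on the day of collection. Whether the counted 3′ ends lie outside the deleted part is not given. Libraries are therefore named by label throughout, and a difference between genotypes is 1 between libraries carrying those labels. Of 8576 distinct nucleus barcodes, 9 were in more than 1 library.

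Dmd was the most abundant of the genes by a wide margin and the 14th of all genes in the matrix, with 156902 UMIs. Its gene body spans 2257 kb and reads in introns were counted, so levels are set side by side between genes only per kb of gene body. On that scale, over all nuclei, Dag1 stood highest at 3.64 CPM per kb, followed by Dmd at 2.36 and Sgca at 1.94, and the others lay between 0.641 and 0.810. Lama2 and Sgcd, with the lowest values of 0.641 and 0.649, stood close together. Itga7 and Sgca had the fewest UMIs, 500 and 773, and their values are the least precise.

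**Figure D1:**
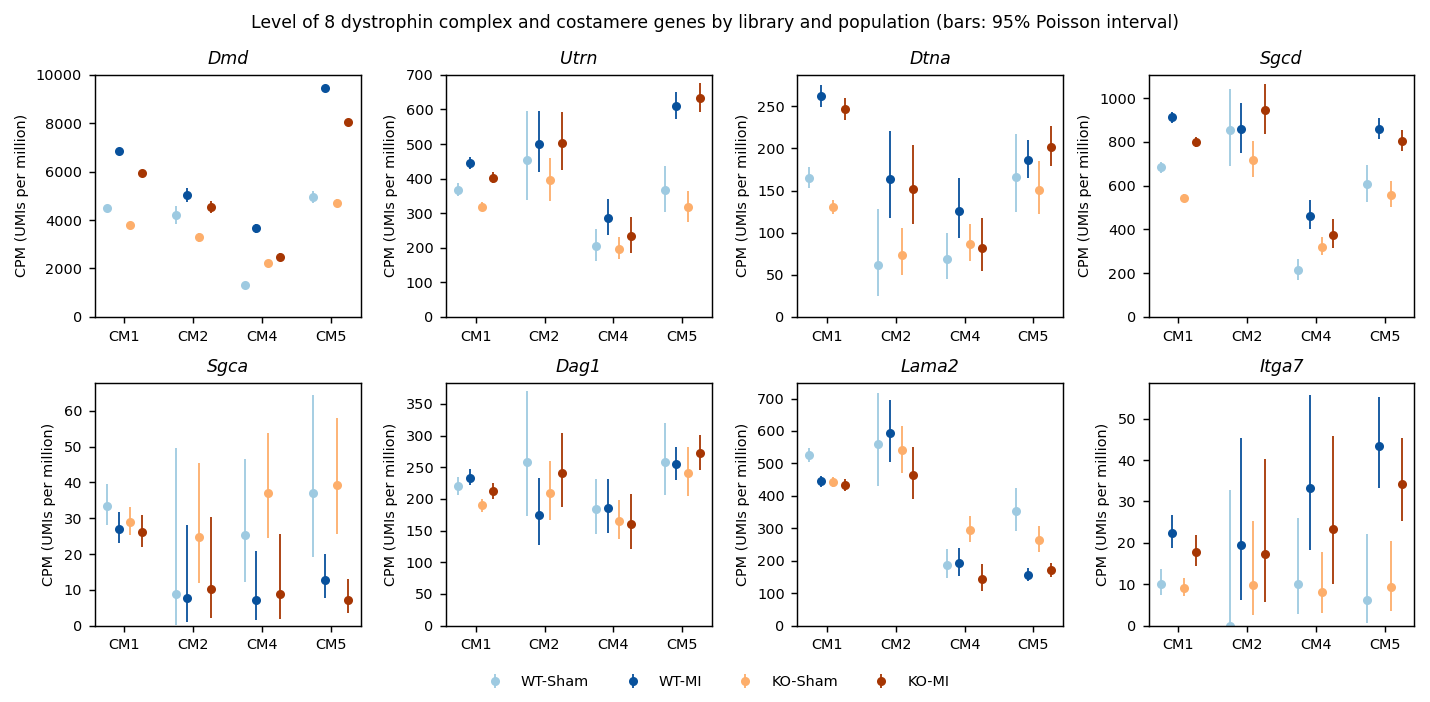
Level of each gene in CPM, with 95% Poisson intervals, for the 4 libraries in each of the 4 populations, 1 panel per gene with its own axis from 0. Dmd in CM1 runs from 3816 CPM in KO-Sham to 6872 CPM in WT-MI and reaches 9434 CPM in CM5 of WT-MI, while Lama2 is lowest in CM4 and CM5.

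The first question was how the complex stood after MI against Sham in the main population, CM1. In both genotypes Dmd, Dtna and Itga7 stood more than 1.5-fold higher after MI, Sgcd and Utrn stood higher by less, and Dag1, Sgca and Lama2 differed little or stood lower. A member was counted as past the fold at 1.5-fold or more either way with 20 or more UMIs over both sums. By this count 3 of 8 members were past it in the WT pair, beside 25% of the 12738 genes with enough UMIs, and the same 3 of 8 in the KO pair, beside 24.8% of 13152 genes. With 1 library per group no difference has a replicate check and none was tested.

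Dmd, which encodes dystrophin (chromosome X, 82948870 to 85206141, plus strand), stood in CM1 at 4498 CPM in WT-Sham, 6872 in WT-MI, 3816 in KO-Sham and 5938 in KO-MI. Both MI libraries lay above both Sham libraries and no intervals overlapped. The log2 ratio of MI over Sham was 0.61 (interval 0.59 to 0.64) in WT and 0.64 (0.61 to 0.66) in KO. Both ratios lie close to the fold itself, 0.585 on that scale, and both were inside it within nuclei of 2000 to 4000 UMIs, at 0.57 and 0.49, and in nuclei without UMIs of other cells' markers, at 0.36 and 0.46. The KO ratio was also inside it under TMM scaling, at 0.575, and centred by gene length, at 0.52. Xist, the RNA of the inactive X chromosome, which marks female nuclei, stood at 161 CPM in WT-Sham, 775 in KO-Sham, 1010 in WT-MI and 1585 in KO-MI, so the pools differed in it, and its part in the level of the X-linked Dmd was not tested.

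Utrn encodes utrophin, a relative of dystrophin that binds the same partners and can stand in for it (chromosome 10, 12382188 to 12869365, minus strand). It stood at 367 CPM in WT-Sham, 446 in WT-MI, 318 in KO-Sham and 403 in KO-MI. Within each genotype the MI library was the higher one, but the intervals of KO-MI and WT-Sham met at 386 CPM. The ratio of MI over Sham was 0.28 (0.19 to 0.37) in WT and 0.34 (0.25 to 0.42) in KO, within the fold. For every 100 Dmd UMIs there were 8.16 Utrn UMIs in WT-Sham (7.74 to 8.60) and 8.34 in KO-Sham (7.99 to 8.70), against 6.49 in WT-MI (6.23 to 6.75) and 6.78 in KO-MI (6.49 to 7.09). In CM1, Utrn therefore stood lower relative to Dmd in both MI libraries, beyond counting error.

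Dtna encodes alpha-dystrobrevin, which binds dystrophin and syntrophins on the cytoplasmic side. It stood at 165 CPM in WT-Sham, 262 in WT-MI, 130 in KO-Sham and 247 in KO-MI, and only the intervals of the 2 MI libraries overlapped. The ratio of MI over Sham was 0.66 (0.53 to 0.79) in WT and 0.92 (0.80 to 1.04) in KO. The difference between these ratios was not tested.

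The sarcoglycans went different ways. Sgcd, delta-sarcoglycan, the part of the sarcoglycan subcomplex whose gene body is longest here (chromosome 11, 46896253 to 47988969, minus strand), stood at 683 CPM in WT-Sham, 912 in WT-MI, 545 in KO-Sham and 800 in KO-MI. No intervals overlapped, and both MI libraries stood above both Sham libraries, with ratios of 0.42 (0.35 to 0.48) in WT and 0.55 (0.49 to 0.62) in KO. Sgca, alpha-sarcoglycan (chromosome 11, 94962791 to 94976327, minus strand, overlapping Hils1), stood at 33.5 CPM in WT-Sham, 27.1 in WT-MI, 29.0 in KO-Sham and 26.1 in KO-MI, from 139 to 213 UMIs each. All of its intervals overlapped, and its ratios of -0.31 (-0.65 to 0.03) and -0.15 (-0.47 to 0.16) included no change. The count of Sgca UMIs for every 100 Sgcd UMIs was 4.90 in WT-Sham (4.11 to 5.81) and 5.33 in KO-Sham (4.62 to 6.12), and 2.97 in WT-MI (2.52 to 3.48) and 3.26 in KO-MI (2.74 to 3.87). The number of Sgca UMIs relative to Sgcd was thus lower after MI in both genotypes, beyond counting error.

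Dag1 encodes dystroglycan, the membrane receptor that joins dystrophin to laminin (chromosome 9, 108204634 to 108263958, minus strand). It stood at 221 CPM in WT-Sham, 234 in WT-MI, 190 in KO-Sham and 213 in KO-MI. Its ratio of MI over Sham was 0.08 (-0.04 to 0.21) in WT and 0.16 (0.05 to 0.28) in KO. Lama2 encodes the alpha-2 chain of laminin, the ligand in the basement membrane (chromosome 10, 26980036 to 27619758, minus strand). It stood at 526 CPM in WT-Sham and at 445, 444 and 433 in WT-MI, KO-Sham and KO-MI, so that WT-Sham was higher and the other 3 libraries overlapped. The ratio of MI over Sham was -0.24 (-0.33 to -0.16) in WT and -0.04 (-0.11 to 0.04) in KO. Fibroblasts also make Lama2, and the 7 fibroblast markers, all detected, summed in CM1 to 946 CPM in WT-Sham and to 807 to 825 CPM in the other libraries. Their part in the Lama2 difference was not tested.

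Itga7 encodes the alpha-7 integrin, a laminin receptor that runs parallel to dystroglycan (chromosome 10, 128933818 to 128958282, plus strand, overlapping Mettl7b). It stood at 10.1 CPM in WT-Sham, 22.4 in WT-MI, 9.13 in KO-Sham and 17.9 in KO-MI, from 42 to 130 UMIs. Both MI libraries lay above both Sham libraries with no overlap of intervals between surgeries. The ratio of MI over Sham was 1.15 (0.64 to 1.69) in WT and 0.97 (0.50 to 1.44) in KO, the highest of the 8 in both pairs. Myeloid markers, 8 of 8 detected in every CM1 sum, moved with surgery too, from 75.2 to 156 CPM in WT and from 52.3 to 105 CPM in KO, and their part in the members' levels was not tested.

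The median log2 ratio over the 8 members was 0.35 in WT and 0.45 in KO, beside medians over all genes of -0.07 and 0.03. Gene bodies over 100 kb had medians of -0.07 and 0.12. Dmd, Utrn, Dtna, Sgcd and Lama2 belong to that class, and the first 4 stood above its median in both pairs.

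**Figure D2:**
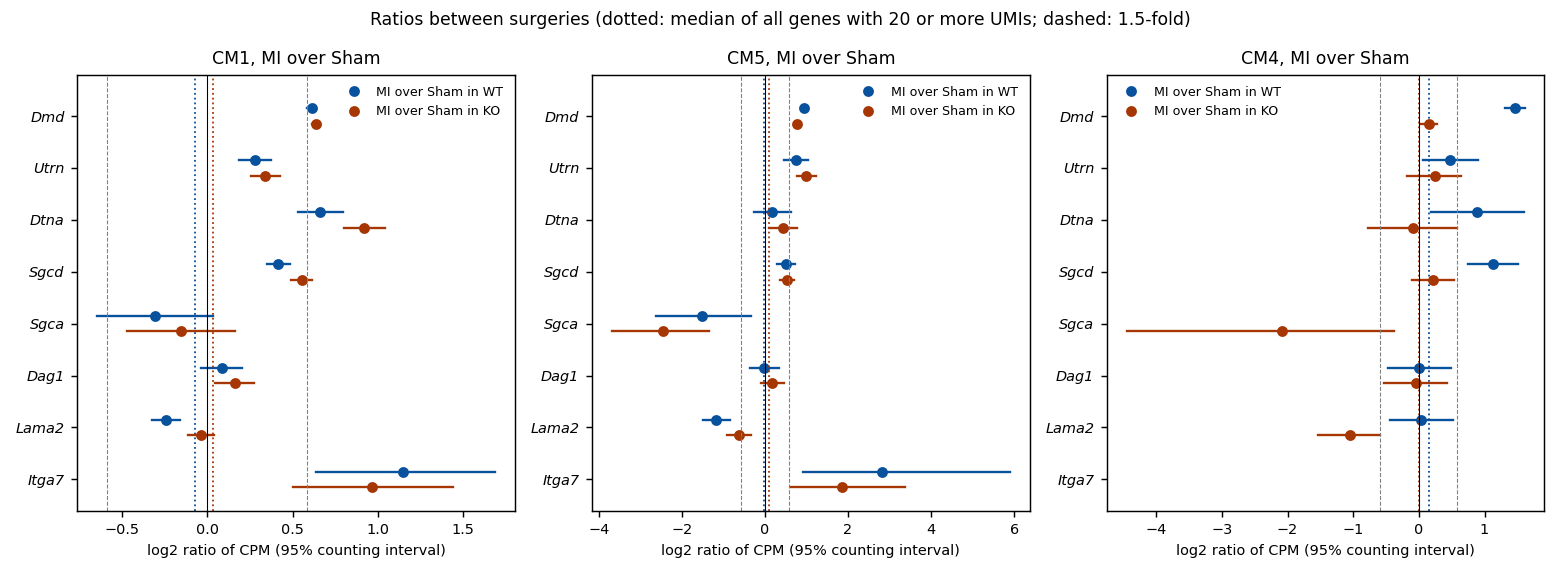
Log2 ratio of CPM of MI over Sham, with 95% counting intervals, for each member with 20 or more UMIs over both sums, in CM1, CM5 and CM4, WT in blue and KO in brown, with dashed lines at 1.5-fold and dotted lines at the median of all genes. In CM1 Dmd, Dtna and Itga7 lie at or past the upper line in both genotypes, and in CM5 Sgca and Lama2 lie past the lower line.

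The second question was how the libraries labelled KO stood against those labelled WT. In CM1 all 8 members stood lower in the KO-labelled library after both surgeries, but none by 1.5-fold. The share of all genes that stood lower is not given here. The median log2 ratio over all genes was 0.02 after MI and -0.11 after Sham. Over gene bodies of more than 100 kb it was -0.04 and -0.23. The direction of Sgca after both surgeries and of Itga7 after Sham turned when nuclei were thinned to 1000 UMIs. In the few nuclei without UMIs of other cells' markers, from 31 to 215 in CM1 of a library, Sgcd after MI was 0.04, Sgca after MI 2.09 and Dag1 after Sham 0.02, and with the transferred label CM1 or CM3 Sgca after MI was 0.0056. Of 8 members 0 were past the fold in the MI pair, beside 8.53% of 12910 genes, and 0 in the Sham pair, beside 14.5% of 12916 genes.

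In the MI pair the ratios of KO over WT ran from -0.04 for Lama2 (-0.12 to 0.04) to -0.33 for Itga7 (-0.73 to 0.06). The intervals of 4 members lay below 0, those of Dmd at -0.21 (-0.23 to -0.19), Sgcd at -0.19 (-0.25 to -0.13), Utrn at -0.15 (-0.23 to -0.06) and Dag1 at -0.14 (-0.25 to -0.02). The median of the members was -0.14 beside 0.02 for all genes and -0.04 for gene bodies over 100 kb. Of 66 further genes of the complex and its surroundings with enough UMIs, 10 had intervals below 0 and 7 above. The share of all genes with ratios or intervals below 0 is not given here, and intervals narrow with UMIs.

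In the Sham pair 6 intervals lay below 0, with Dtna lowest at -0.34 (-0.49 to -0.20), then Sgcd at -0.33 (-0.40 to -0.26), Lama2 at -0.25 (-0.32 to -0.17), Dmd at -0.24 (-0.26 to -0.21), Dag1 at -0.22 (-0.34 to -0.09) and Utrn at -0.21 (-0.30 to -0.11). The members' median of -0.23 stood beside -0.11 for all genes and equalled the median of -0.23 for gene bodies over 100 kb. Of the 66 further genes, 27 had intervals below 0 and 5 above, and the share of all genes is again not given. KO-Sham is also the library with fewer UMIs per nucleus and more mitochondrial UMIs, and within nuclei of 2000 to 4000 UMIs no member passed the fold in this pair, though Itga7 stood at 0.52. Centred within classes of gene length, Dmd in the Sham pair was -0.0029 and Utrn 0.03. Nfe2l1 went against the label in the MI pair, so these are differences between the libraries so labelled.

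**Figure D3:**
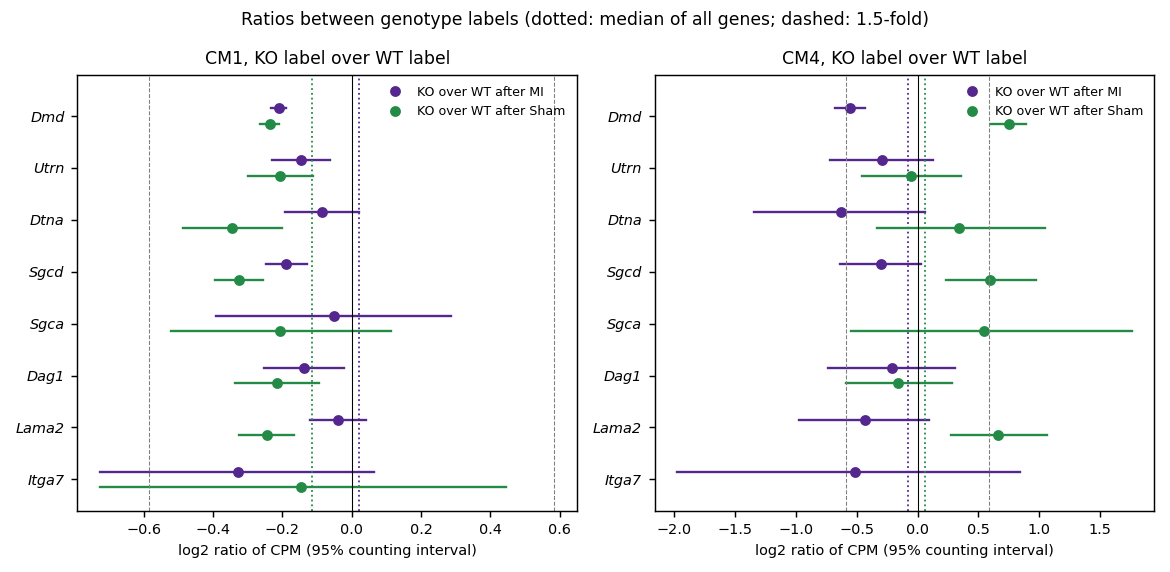
Log2 ratio of CPM of the library labelled KO over that labelled WT, with 95% counting intervals, after MI in purple and after Sham in green, in CM1 and CM4, with dashed lines at 1.5-fold and dotted lines at the median of all genes. In CM1 every point lies left of 0 and inside the dashed lines, and in CM4 Dmd lies left of 0 after MI and right of it after Sham.

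Populations were compared with CM1 inside each library. Per the methods, the population labels came from the gene expression of these same nuclei, by label transfer from an earlier reference and clustering. Which members entered is not given, so these differences describe the labels and are not tests. The transferred label of a nucleus can differ from its deposited population label. CM2 holds nuclei with the transferred label CM5, and CM5 holds nuclei with the transferred label CM2. The values of CM2 and CM5 were not split by transferred label. CM5 had more Dmd and Dag1 and less Lama2 than CM1 in all 4 libraries, though for Dag1 the intervals of WT-Sham and WT-MI included no change. In the MI libraries CM5 also had more Utrn and Itga7 and less Sgca and Dtna. Lower in every library was 1 member, Lama2, beside 15.1% of 10659 genes, and higher in every library were 2, Dmd and Dag1, beside 11.4%.

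In CM5, Dmd stood at 4957 CPM in WT-Sham, 9434 in WT-MI, 4717 in KO-Sham and 8034 in KO-MI. Against CM1 of the same library the log2 ratios were 0.14, 0.46, 0.31 and 0.44 in that order. Within nuclei of 2000 to 4000 UMIs the ratio in WT-Sham was -0.04 (-0.17 to 0.09), from 551 Dmd UMIs in CM5, while the other 3 were 0.32 to 0.58. Dag1, at 241 to 272 CPM, had ratios of 0.12 to 0.36 against CM1. Its intervals included no change in WT-Sham, at 0.23 (-0.11 to 0.55), and in WT-MI, at 0.12 (-0.05 to 0.29). Within nuclei of 2000 to 4000 UMIs its ratio in WT-MI was -0.09 (-0.41 to 0.21). In that depth range the excess over CM1 was thus absent in 1 library for each gene and present in the other 3, with intervals above 0.

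Lama2 in CM5 stood at 354 CPM in WT-Sham, 156 in WT-MI, 264 in KO-Sham and 170 in KO-MI. It was lower than in CM1 of each library, by log2 ratios of -0.57 (-0.86 to -0.30), -1.51 (-1.71 to -1.31), -0.75 (-0.98 to -0.52) and -1.35 (-1.54 to -1.15), and lowest in the MI libraries. In nuclei of 2000 to 4000 UMIs the 4 ratios ran from -1.41 to -0.40. The fibroblast markers summed to 839 to 1052 CPM in CM5 and 807 to 946 CPM in CM1, and their part in the Lama2 levels was not tested.

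Utrn in CM5 equalled CM1 within counting error in the Sham libraries (366 CPM in WT-Sham and 318 in KO-Sham) and stood higher in WT-MI, at 610 CPM and a ratio of 0.45 (0.34 to 0.56), and in KO-MI, at 632 CPM and 0.65 (0.54 to 0.76). Itga7 in CM5 stood at 6.15 CPM in WT-Sham and 9.44 in KO-Sham, from 2 and 6 UMIs, and at 43.3 CPM in WT-MI and 34.2 in KO-MI, from 64 and 48 UMIs. The MI values were above CM1 of the same libraries by 0.95 (0.50 to 1.39) and 0.94 (0.41 to 1.45). Sgca in CM5 was counted in 12 UMIs in WT-Sham, 25 in KO-Sham, 19 in WT-MI and 10 in KO-MI, or 36.9, 39.3, 12.9 and 7.12 CPM. Its ratio against CM1 was -1.07 (-1.84 to -0.38) in WT-MI and -1.87 (-2.97 to -0.95) in KO-MI, and in nuclei of 2000 to 4000 UMIs that of WT-MI was -0.06 (-1.04 to 0.81).

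Within CM5, Dmd, Utrn and Itga7 stood higher after MI and Sgca and Lama2 lower, past the fold in both genotypes, while Dtna, past it in CM1, was not, at 0.16 (-0.26 to 0.61) in WT and 0.42 (0.08 to 0.77) in KO. Past the fold were 5 of 8 members in the WT pair, beside 47% of 8361 genes, and 5 of 8 in the KO pair, beside 44.4% of 8929 genes, so that the members' share was near that of all genes. Higher after MI were Dmd, with log2 ratios of 0.93 (0.85 to 1.004) in WT and 0.77 (0.71 to 0.83) in KO, Utrn, with 0.74 (0.46 to 1.03) and 0.99 (0.77 to 1.22), and Itga7, with 2.82 (0.90 to 5.89) and 1.86 (0.63 to 3.37). Lower were Sgca, with -1.52 (-2.64 to -0.35) and -2.47 (-3.69 to -1.36), and Lama2, with -1.18 (-1.51 to -0.84) and -0.64 (-0.93 to -0.34). Sgcd stood higher by 0.50 (0.29 to 0.73) and 0.53 (0.35 to 0.70), within the fold, and Dag1 had intervals that included no change. Between genotype labels, Dmd in CM5 was lower in KO-MI than in WT-MI by a ratio of -0.23 (-0.27 to -0.20). Only Sgca was past the fold in that MI pair, at -0.85 (-2.12 to 0.32), beside 14.5% of 9680 genes, and 0 of 7 with enough UMIs were past it in the Sham pair, beside 25.8% of 6325 genes.

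**Figure D4:**
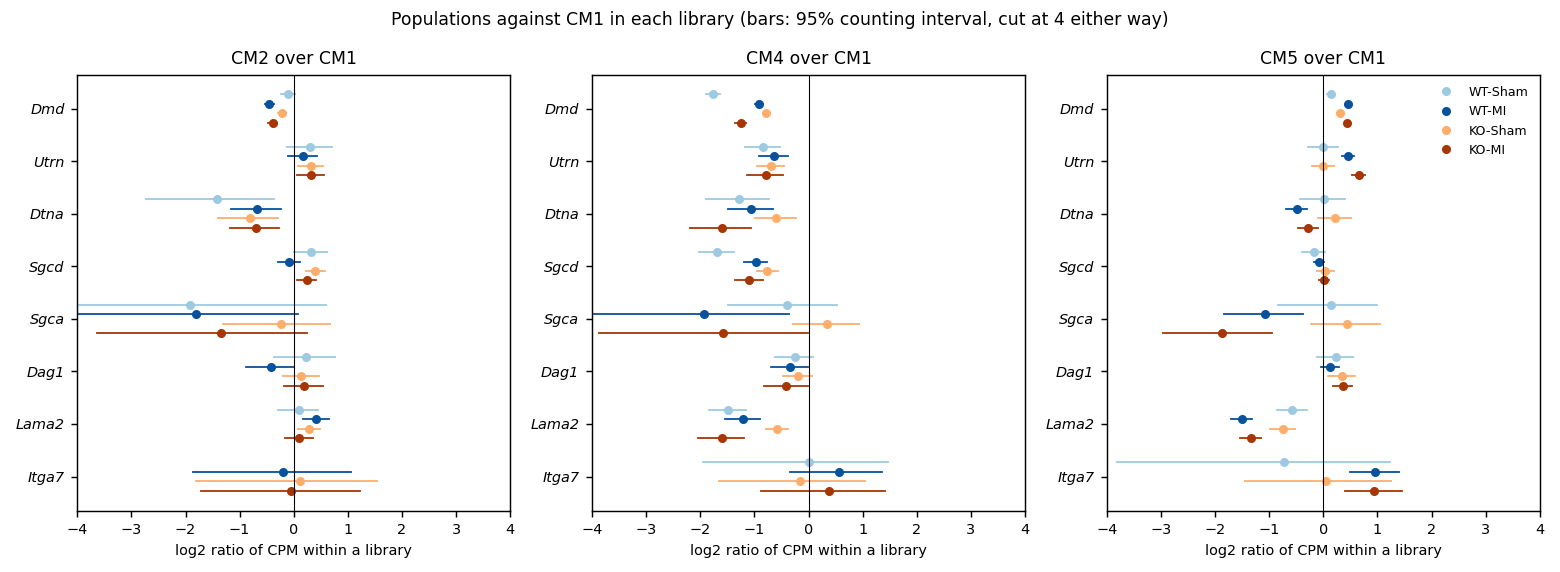
Log2 ratio of CPM of CM2, CM4 and CM5 over CM1 within each library, with 95% counting intervals drawn to 4 either way, 4 points per member in the colours of the libraries. In CM4 Dmd, Sgcd, Dtna and Lama2 lie left of 0 in all 4 libraries, and in CM5 Lama2 lies left of 0, further in the MI libraries.

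CM4 stood below CM1 in most of the complex. In all 4 libraries 6 members stood lower in CM4 than in CM1, Dmd, Utrn, Dtna, Sgcd, Dag1 and Lama2, beside 34.2% of 10614 genes, and 0 stood higher in all 4, beside 24.4%. Dmd in CM4 stood at 1325 CPM in WT-Sham, 3653 in WT-MI, 2226 in KO-Sham and 2485 in KO-MI. Each value lay below that of CM1 in the same library, by log2 ratios of -1.76 (-1.89 to -1.64), -0.91 (-0.99 to -0.84), -0.78 (-0.85 to -0.71) and -1.26 (-1.36 to -1.16).

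Sgcd in CM4 stood at 212 CPM in WT-Sham, 463 in WT-MI, 322 in KO-Sham and 375 in KO-MI, with ratios to CM1 of -1.68 to -0.76. Lama2 in CM4 stood at 187 CPM in WT-Sham, 192 in WT-MI, 296 in KO-Sham and 143 in KO-MI, with ratios of -1.60 to -0.59. Dtna had ratios of -1.60 to -0.60 and Utrn of -0.84 to -0.65. Dag1 was close to CM1, with ratios of -0.41 to -0.20, the smallest in size of the 6 in each library. Its intervals in WT-Sham and KO-Sham included no change. For every 100 Dmd UMIs CM4 held 15.5 Utrn UMIs in WT-Sham (12.1 to 19.6), against 7.80 to 9.37 in the other libraries.

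CM4 nuclei also differed in quality and in RNA of other cells. Their median was 1715.5 to 2394 UMIs against 2632 to 4043.5 in CM1, and 9.47 to 14.6 percent of their UMIs were mitochondrial against 5.05 to 8.78. The 7 endothelial markers, all detected, summed to 305 to 475 CPM against 86.5 to 117 in CM1, the 7 fibroblast markers to 1765 to 2182 CPM against 807 to 946, and the 5 red blood cell markers to 3538 to 12805 CPM against 1891 to 3829. Within nuclei of 2000 to 4000 UMIs the same 6 members stood lower in every library. Centred on the median of all genes 5 did, without Dag1, centred by gene length 4 did, without Utrn and Dag1, and in the 1 to 20 CM4 nuclei per library without UMIs of endothelial, fibroblast, mural and myeloid markers 4 did, without Sgcd and Dtna. Fibroblasts also make Lama2. The part of the other cells' RNA in the members' levels, Lama2 among them, was not tested.

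CM4 nuclei were uneven in Dmd. With nuclei thinned to 1000 UMIs apiece, leaving out 5 CM4 nuclei of WT-Sham and 1 of WT-MI, the median CM4 nucleus held 1 Dmd UMI in WT-Sham, WT-MI and KO-MI and 2 in KO-Sham, against 3 to 6 in CM1 and 4 to 9 in CM5. The highest CM4 nucleus held 20 in WT-Sham, 29 in WT-MI, 12 in KO-Sham and 34 in KO-MI, and no CM1 nucleus held more than 23. The mean CM4 nucleus of WT-MI held 3.67 Dmd UMIs and its upper quartile was 5, well above its median.

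**Figure D5:**
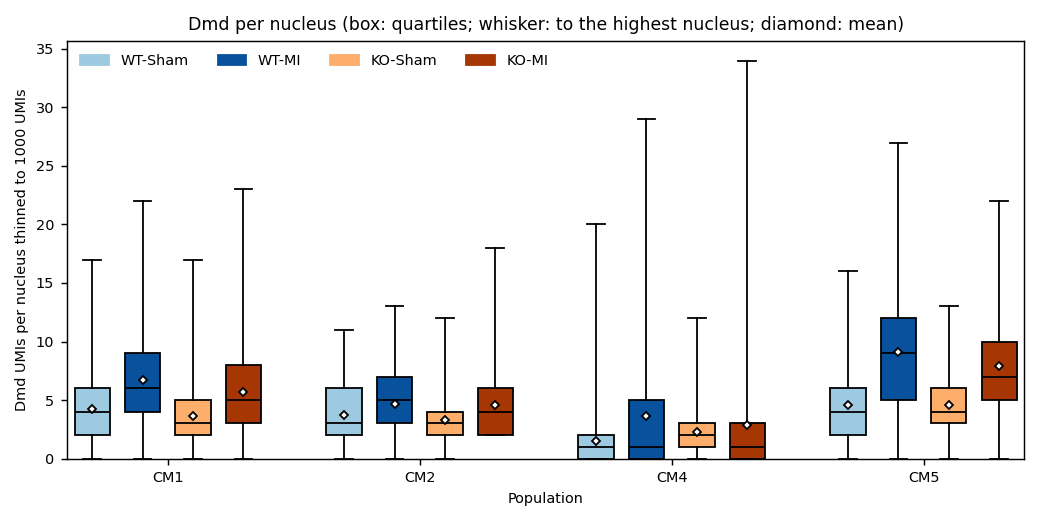
Dmd UMIs per nucleus after thinning to 1000 UMIs, by population and library, with boxes at the quartiles, whiskers to the lowest and highest nucleus, a line at the median and a diamond at the mean. CM5 of the MI libraries has the highest medians, 9 in WT-MI and 7 in KO-MI, and CM4 has medians of 1 or 2 with nuclei up to 34.

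In CM4 the comparisons between genotype labels went opposite ways by surgery. KO over WT was 0.75 (0.61 to 0.89) for Dmd after Sham and -0.56 (-0.68 to -0.43) after MI. After Sham, 3 of 7 members with enough UMIs were past the fold and higher in KO-Sham, Dmd, Sgcd at 0.60 (0.23 to 0.98) and Lama2 at 0.66 (0.27 to 1.06), beside 30.7% of 6811 genes. After MI, 1 of 7 was past it, Dtna at -0.63 (-1.34 to 0.06), beside 31.6% of 5686 genes. Gene bodies over 100 kb had CM4 medians of 0.39 after Sham and -0.34 after MI, and centred within classes of gene length Dmd was 0.36 and -0.22, both inside the fold. Utrn, also over 100 kb, was -0.06 (-0.46 to 0.36) after Sham. The MI value of Dmd was -0.24 with nuclei thinned to 1000 UMIs and -0.27 in nuclei of 2000 to 4000 UMIs. Between WT-Sham and KO-Sham CM4 also differed in endothelial markers (475 and 305 CPM), fibroblast markers (2182 and 1765 CPM), red blood cell markers (12805 and 7833 CPM) and median mitochondrial percent (14.6 and 11.6), and their part in these ratios was not tested. Among CM4 nuclei that the study's label transfer also called CM4, Dmd stood at 1224 CPM in WT-Sham, 1933 in KO-Sham, 2518 in WT-MI and 2420 in KO-MI. There the Sham ratio was 0.66 and the MI ratio -0.06. The 26 CM4 nuclei of WT-MI that the transfer called CM1 stood at 7190 CPM, close to the 6872 CPM of CM1 itself. In the other libraries such nuclei stood below CM1. They had 1803 CPM in WT-Sham (CM1 4498), 2853 in KO-Sham (CM1 3816) and 2860 in KO-MI (CM1 5938).

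MI over Sham in CM4 likewise differed between the pairs. In WT, 3 of 6 members with enough UMIs were past the fold and higher, Dmd at 1.46 (1.32 to 1.61), Sgcd at 1.12 (0.75 to 1.51) and Dtna at 0.88 (0.19 to 1.61), beside 44.6% of 5777 genes. In KO, 2 of 7 were past it and lower, Sgca at -2.08 (-4.45 to -0.38), from 3 and 27 UMIs, and Lama2 at -1.05 (-1.53 to -0.60), beside 37.4% of 6744 genes. Dmd in the KO pair was 0.16 (0.04 to 0.28). Gene bodies over 100 kb, among them Dmd, Sgcd, Dtna and Lama2, had CM4 medians of 0.49 in WT and -0.23 in KO. Of that class 44.5% stood higher past the fold in WT, and 29.3% stood lower past it in KO. WT-Sham, where CM4 was lowest in Dmd and highest in mitochondrial UMIs, enters the WT pair and not the KO pair.

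CM2 is the smallest population, with 27 to 124 nuclei per library. Dmd, Sgca and Dtna stood lower than in CM1 in every library, 3 of 8 members beside 12.2% of 10502 genes, and Utrn and Lama2 higher in every library, 2 of 8 beside 14.9%. The Lama2 count ended under median centring and TMM scaling, and both ended in nuclei of 2000 to 4000 UMIs. All of these counts go by sign alone. Sgca rested on 1 to 10 UMIs per library in CM2, and each of its intervals included no change. The intervals of Dmd in WT-Sham, Utrn in WT-Sham and WT-MI, and Lama2 in WT-Sham and KO-MI also included no change. Dtna had the widest differences with intervals below 0, at -1.41 (-2.73 to -0.36) in WT-Sham, -0.68 (-1.16 to -0.24) in WT-MI, -0.82 (-1.39 to -0.29) in KO-Sham and -0.70 (-1.17 to -0.27) in KO-MI, from 7 to 44 UMIs. Dmd in CM2 stood at 3285 to 5034 CPM, below CM1 by -0.45 to -0.10. For every 100 Dmd UMIs CM2 held 9.95 to 12.01 Utrn UMIs, above the 6.49 to 8.34 of CM1 in each library, with overlapping intervals in WT-Sham only. Itga7 had 0 UMIs in the 27 nuclei of WT-Sham, where its 95% Poisson interval reaches up to 32.8 CPM.

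The other genes of the complex and its surroundings were read in 6 lists of 67 genes, 66 of which had enough UMIs in CM1. After MI, 11 stood past the fold and higher and 1 lower in WT, and 14 higher and 1 lower in KO, with medians of 0.17 and 0.30. Of all genes 10.4% were higher and 14.6% lower past the fold in WT, and 12.1% and 12.8% in KO. Between genotype labels, 3 were higher and 2 lower in KO-MI than in WT-MI, and 1 higher and 2 lower in KO-Sham than in WT-Sham, with medians of 0.00014 and -0.20. The shares of all genes were 4.54% and 3.99% after MI and 7.85% and 6.64% after Sham.

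Among dystrobrevins and syntrophins, Sntb1, the beta-1 syntrophin that docks to dystrophin and dystrobrevin, stood in CM1 at 383 CPM in WT-Sham, 812 in WT-MI, 321 in KO-Sham and 820 in KO-MI. Its MI over Sham ratios of 1.09 (1.004 to 1.17) and 1.35 (1.28 to 1.42) were above those of Dmd. Sntg2, a gamma syntrophin, had 1.69 to 8.64 CPM and ratios of 2.32 (1.17 to 3.71) and 0.66 (0.02 to 1.31). Among the remaining sarcoglycans and sarcospan 0 of 5 were past the fold in WT and 1 of 5, higher, in KO.

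Of the 18 genes of integrins, talin and vinculin, 4 were past the fold and higher in WT and 5 in KO, and 0 lower, beside the shares of all genes above. Itga1, a collagen and laminin receptor chain, had ratios of 0.95 (0.79 to 1.11) and 1.0 (0.87 to 1.13). Itga5, the fibronectin receptor chain, had 0.77 (0.57 to 0.98) and 0.95 (0.76 to 1.13). Tln1, a talin that links integrins to actin, had 0.76 (0.53 to 0.99) in WT, and Vcl, vinculin, a defining protein of the costamere, had 0.69 (0.58 to 0.79) in KO. Tln2, the most counted of the list, stood at 338 to 465 CPM.

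Of the 14 genes of the membrane skeleton, Sorbs2, an actin-linked scaffold of the costamere and Z-disc, stood at 2284 CPM in WT-Sham, 3610 in WT-MI, 1813 in KO-Sham and 3117 in KO-MI. Its ratios of 0.66 (0.63 to 0.70) and 0.78 (0.75 to 0.81) were near those of Dmd. Synm, an intermediate filament protein that binds dystrophin and dystrobrevin, had 1.32 (0.37 to 2.39) and 1.66 (0.81 to 2.58) from 12 to 42 UMIs, and Des, desmin, had 0.61 (0.48 to 0.73) in WT. Ank3, an ankyrin, had 0.62 (0.57 to 0.67) in KO. In the Sham pair of genotype labels Sync, a binding partner of desmin and dystrobrevin, stood lower in KO-Sham by a ratio of -0.67 (-1.28 to -0.06).

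Among the 10 basement membrane genes Hspg2, the proteoglycan perlecan that binds dystroglycan, had ratios of 0.60 (0.45 to 0.75) in WT and 0.84 (0.70 to 0.98) in KO, and Col4a1, a collagen IV chain and the most counted, had 0.47 (0.33 to 0.62) and 0.56 (0.44 to 0.68). Lama5, another laminin alpha chain, stood higher after MI in KO by 0.62 (0.29 to 0.96), where Lama2 did not. Of the 13 enzymes that put the laminin-binding sugar on dystroglycan, 1 stood higher and 1 lower past the fold after MI in each genotype. Between KO-MI and WT-MI the interval excluded no change for B4gat1, a transferase of the same pathway, at 0.73 (0.16 to 1.31), and for Pomt1, which starts the sugar, at -0.80 (-1.41 to -0.20), both past the fold.

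The genes whose log2 CPM followed each member most closely over the 16 sums of library and population were ranked by Pearson's r among the 3731 genes with 5 or more UMIs in every sum. The sums share libraries and depth, so r is a description. Nearest to Dmd were Lrrfip1 (0.99), Mir99ahg (0.97) and Pde4dip (0.97), and nearest to Utrn were Mast4, Gphn and Map4 (0.96 to 0.97). Nearest to Sgcd were Rbm26 (0.98), B4galt1 and Rbfox2, to Dtna Rbms3 (0.95), Trip11 and Lpp, and to Dag1 Tjap1 (0.92), Relch and Ssbp2. Nearest to Lama2 were Auts2, Pde1c and Nfia (all 0.97), and Sgca and Itga7 had too few UMIs. Between members, r was 0.92 for Utrn with Sgcd, 0.88 for Dmd with Utrn and 0.87 for Dmd with Sgcd, and for Lama2 it ran from 0.08 with Dtna to 0.50 with Sgcd. Lama2, the ligand outside the cell, had the lowest r with Dmd, Utrn, Sgcd, Dtna and Dag1 alike.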

How the data were processed

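Single-nucleus libraries were made by the authors with a droplet 3′ kit, whose version differs between labels and methods. Reads were aligned and UMIs counted with Cell Ranger (version not given in the sources used here) against an mm10 (GRCm38) reference that counted introns, per the methods, and clustered with Seurat version 3 after the authors removed doublets with Scrublet and filtered nuclei by genes detected. The deposited matrix held whole counts of UMIs for cardiomyocyte nuclei only, with CM1 and CM3 under 1 label, and a deposited table gave population labels and the percent of mitochondrial UMIs. 10 per-nucleus columns of that table were not used. Each nucleus was assigned to a library from its label. No further filter or doublet call was applied.

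UMIs were summed per library and population and divided by the total of the sum (CPM). With 1 library per group no pair of groups could be tested, and a model with additive terms for genotype label and surgery over the 4 libraries was not run. Exact 95% Poisson intervals of CPM and exact conditional binomial intervals of log2 ratios cover counting error only, so they leave out the spread between hearts, and the interval of a ratio narrows with UMIs. PCR duplicates were removed by UMI in the authors' counts. All 8 members are named, and of each further list the gene with the most UMIs and up to 4 genes per comparison past 1.5-fold whose interval excluded no change, except some not reported here. Members, lists and alternatives were chosen with earlier results of these data known. Gene bodies came from GENCODE M21, which matched 22122 of 22574 symbols (98.0%). Whether counting used strand is not given in the sources used here. Dmd, Dtna, Sgca, Itga7 and Lama2 each overlap another gene of the matrix, only on the opposite strand. They may hold reads of it if strand was not used. The paralogs Dmd and Utrn could share reads. Promoter windows came from RefSeq (GRCm38.p6). Alternatives covered scaling (TMM from edgeR 4.0.16 in R 4.3.3, median centring, gene length classes), denominators, count minimums, the fold, depth of nuclei, RNA of other cells and transferred labels. Python 3.11.15, numpy 2.4.6, scipy 1.17.1 and pandas 2.3.3 were used, with scripts tested on simulated data.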

Additional observations from a re-analysis of the deposited data

Results flagged for a closer look

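Dmd in CM4 went opposite ways between the genotype labels by surgery, with a log2 ratio of KO over WT of -0.56 after MI and 0.75 after Sham. Each direction rests on 1 library per group, and the difference was not tested. The MI ratio was -0.06 among CM4 nuclei with the transferred label CM4, and the Sham ratio 0.66. The MI ratio was -0.24 with nuclei thinned to 1000 UMIs, -0.27 in nuclei of 2000 to 4000 UMIs and -0.27 as a mean over nuclei. Gene bodies over 100 kb had CM4 medians of -0.34 and 0.39 in the same comparisons, and centred within classes of gene length the Dmd ratios were -0.22 and 0.36.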

How the results depend on the processing

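No paired analysis was run, as each group is 1 library and the labels give no replicate number. A fit with surgery blocked by genotype label over the 4 libraries was not run. No library could be left out of a comparison. Of the counts of members, 74 stayed within 1.5 times their value and 12 did not, among the first set of alternatives, and all 20 stayed among those added after seeing the data. Staying goes by the number of members and not by which members they were. Of the single members' log2 ratios, 65 moved beyond their counting interval and 191 did not in the first set, and of the added ones 22 moved, 1 reversed and 61 did neither. With nuclei that held no UMIs of other cell types, the members past the fold in CM1 were 1 (Dtna) for KO over WT after MI and 0 for MI over Sham in KO. For MI over Sham in WT they were Dtna and Dag1 (0.64), in place of Dmd, Dtna and Itga7, a count that stayed. That pair rested on 31 nuclei in WT-MI and 38 in WT-Sham. With the same choice of nuclei, those lower in CM2 were 1, and those higher in CM2 and in CM5 were 0 each. Dmd for KO over WT after MI in CM4 reversed there, to 1.63, from 3 nuclei in WT-MI and 1 in KO-MI. At 2-fold, 1 member (Itga7) was past it for MI over Sham in WT and 0 in KO. Those higher in CM2 were 1 (Utrn) when centred on the median of all genes, 1 under TMM and 0 in nuclei of 2000 to 4000 UMIs. Those higher in CM5 were 0 in that depth range, and those lower in CM5 were 2 (Sgcd and Lama2) under TMM. The causes were not tested. Counting limits Sgca and Itga7 outside CM1, where sums hold from 0 to 64 UMIs.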
